A study of Mus musculus with 12 samples.

Results

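The response of the wild-type liver to a high-fat diet was described by setting the livers of wild-type (WT) mice on the high-fat diet against those of WT mice on the low-fat diet. The arrays were chosen by their titles, 3 per diet, which makes 6 of the 12 arrays of the series. All 6 mice were male C57BL/6 with both copies of Sirt1 intact (SIRT1+/+), and each gave 1 array of liver RNA (n = 3 mice per group). Both diets were fed for 34 weeks, and the sources used here do not give what they contained. The other 6 arrays came from mice with 1 intact copy of Sirt1 (Het), 3 on each diet. They entered the shared estimate of the spread and one comparison at the end, and no mean of a WT group. Whole liver was measured, so fewer cells of a type and less RNA per cell cannot be told apart.

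The liver takes up fatty acids, makes them from sugar, burns them, and stores the rest as triglyceride in droplets coated with proteins of the perilipin and CIDE families. Long feeding of fat to mice is known for enlarging these droplets and, in part of the animals, for inflammation and scarring by activated stellate cells. Many mouse liver genes also differ between males and females under the control of pituitary growth hormone, which acts through the factor STAT5B.

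Each array carried DNA probes of 60 bases, and the brightness of a probe reports the abundance of its transcript. Levels are given as log2 of the processed intensity relative to the 75th percentile of the array, so 0 is the level of that percentile. They can be compared between arrays for 1 probe, but not between probes. Between 60.4% and 64.4% of the spots were well above background on the WT high-fat arrays, and between 58.0% and 71.6% in WT low-fat livers. The number of arrays limits the precision. Both groups held bright hepatocyte markers. Of 13 measured markers 12 did not pass the test between the diets, among them the albumin gene Alb, with a difference of 0.24 ± 0.26 (SE). Per the file headers, the scan day of the high-fat arrays was shared by no low-fat array, and no slide held both diets. Diet and scan day, and diet and slide, therefore cannot be told apart in any value below. The first principal component of the 6 WT arrays held 46.1% of their variance, with scores of -41.1 to -26.8 under high fat and 33.1 to 37.1 under low fat.

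Of 17043 genes or transcripts tested, 1003 (5.89%) passed an adjusted p of 0.05 in limma. Of these, 464 (2.72%) were higher and 539 (3.16%) lower on the high-fat diet. At least 2-fold differences were found in 228 (1.34%) of the genes tested among those higher and in 236 (1.38%) among those lower. Over all genes tested the median log2 difference was -0.05, and the 5th and 95th percentiles were -0.86 and 0.70. The counts of called members given below are to be read against 2.72% higher and 3.16% lower. An unadjusted p under 0.05 was found for 25.8% of all genes tested, 10.5% higher and 15.3% lower, and groups that did not overlap for 12.5% higher and 18.0% lower. The smallest difference that passed was 0.41 on the log2 scale. The split depended on the scaling, with 998 higher and 339 lower after scaling to the median and 611 higher and 415 lower after quantile normalization. The count depended on single arrays. Leaving out WT high-fat replicate 1, 2 or 3 gave 254, 245 or 186 calls. Leaving out WT low-fat replicate 1, 2 or 3 gave 208, 805 or 346 calls, and leaving out Het low-fat replicate 2 gave 665. In all, 106 genes passed whichever of the 12 arrays was left out, 55 of them higher and 51 lower.

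**Figure D1:**
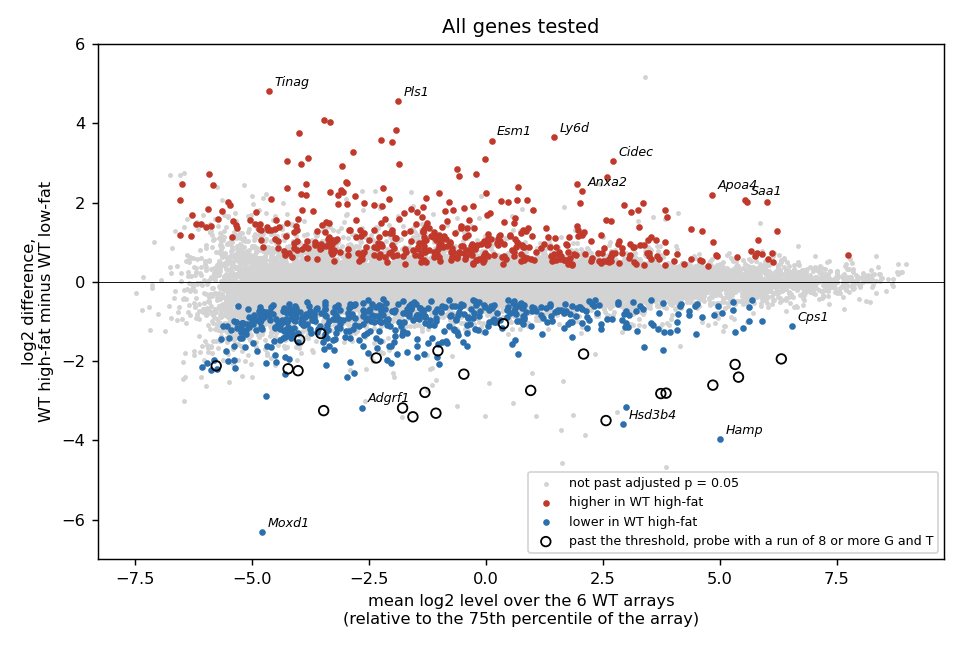
Log2 difference, WT high-fat minus WT low-fat (vertical axis), against the mean log2 level over the 6 WT arrays (horizontal axis), 1 point per gene tested. Red and blue points passed an adjusted p of 0.05 in limma, 464 higher and 539 lower, and black circles mark the 23 of the lower genes whose probe holds a run of 8 or more alternating G and T bases, which lie among the larger decreases.

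A group of decreases came from probes with 1 feature of sequence in common, a run of alternating G and T bases. Of 22 probes with a run of 10 bases or more, 16 (72.7%) were called lower and 0 higher, with a median log2 difference of -2.65. Of 81 probes with a run of 8 or 9 bases, 15 (18.5%) were called lower, with a median of -0.27. Probes with runs of 6 or 7 bases had a median of -0.03, and those with at most 3 had -0.06. Alternating A and C bases, the same letters on the other strand, did not go with such a shift of the median. The 9 probes with at least 10 of them had a median of -0.02. The 64 probes with 8 or 9 had a median of -0.07, and 5 (7.81%) were called lower and 0 higher. Of probes with at most 3 A and C bases in a run, 3.38% were called lower. For the 22 probes the median level of each WT high-fat array was -0.24, 0.17 and -0.73, against 1.97, 0.80 and 2.72 for the low-fat ones. WT low-fat replicate 2 was the low-fat array nearest to the high-fat group. In Het livers, where scan day and diet coincide in the same way, the median difference was -2.92.

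The probes printed here were chosen because their signals were among those that fell most, or because their genes can be checked on another probe. Each is a stretch of 30 bases of the 60-base probe as the array's own table lists it, with the run in capitals. Coordinates are those of the whole probe on mouse build mm7, per the file headers.
Stag2: ttTGTGTGTGTGTcttcttggtgcttgaac
Dennd3: ttttgcaGTGTGTGTGgtgtcccgattccc
Olfr1410: tcatcatTGTGTGTGctgtgtttgtggtca
Bcorl1: tcttttaacTGTGTGTGTGTGTtttgttcc
Junb: agatgtgttTGTGTGTGTGTGTttgacttt
The Stag2 probe lies at chrX:37304204-37304263 (plus strand), that of Dennd3 at chr15:73604761-73604820 (plus) and that of Olfr1410 at chr1:92516282-92516341 (plus). The Bcorl1 probe lies at chrX:43499948-43500007 (plus) and the Junb probe at chr8:83563059-83563118 (minus). The annotation of exons on mm7 was not used here.

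The cohesin subunit gene Stag2 had levels of 0.06, 0.93 and 1.45 in WT high-fat livers, against 4.66, 3.20 and 5.09 in WT low-fat livers on the probe printed above. The groups did not overlap, and the difference was -3.50 ± 0.52. Its other 2 probes, without such a run, differed by -0.21 ± 0.12 and -0.58 ± 0.13, and the second of these passed (adjusted p = 0.0322 over all probes). Dennd3, an activator of a small GTPase of membrane traffic, had -2.58, -2.44 and -3.18 on the high-fat and 1.05, -0.62 and 1.32 on the low-fat arrays, a difference of -3.31 ± 0.49. Its probe without a run differed in the opposite direction, by 0.39 ± 0.17, and did not pass (adjusted p = 0.188 over all probes). The transcription corepressor gene Bcorl1 differed by -2.82 ± 0.63 on the printed probe and by -0.09 ± 0.15 on the other. The hepatocyte-secreted fibrinogen relative Fgl1 differed by -2.69 ± 0.67 on a probe with a run of 13 bases and by 0.72 ± 0.25 on a probe with a run of 3. The AP-1 factor gene Junb was lower on both of its probes, by -2.08 ± 0.47 with the run and by -1.06 ± 0.28 without it, and only the first passed (adjusted p = 0.0329 and 0.0518 over all probes).

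Of 12 genes that had a probe with a run of 10 or more and also other probes, the run probe gave the lowest difference in 11. The median over the 12 genes was -2.31 for the run probe and -0.12 for the median of each gene's other probes, 22 in all. Called were 10 run probes and 1 other probe. With runs of 8 or more there were 55 such genes, and the run probe gave the lowest difference in 34. The medians were then -0.335 for the run probe and -0.09 for the others. Called were 16 of these run probes and 3 of the 91 other probes. At the level of genes, 75 were represented by a probe with a run of 8 or more. Of these, 23 were called lower, each at least 2-fold, and 0 higher. They make up 4.27% of the genes called lower. Without them 980 genes were called, 464 higher and 516 lower. Before probes with runs were set aside, 7 of the 15 largest decreases of named genes had one. What brought these signals down was not tested, and the genes named below have no run of 8 or more in their probe unless stated.

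**Figure D2:**
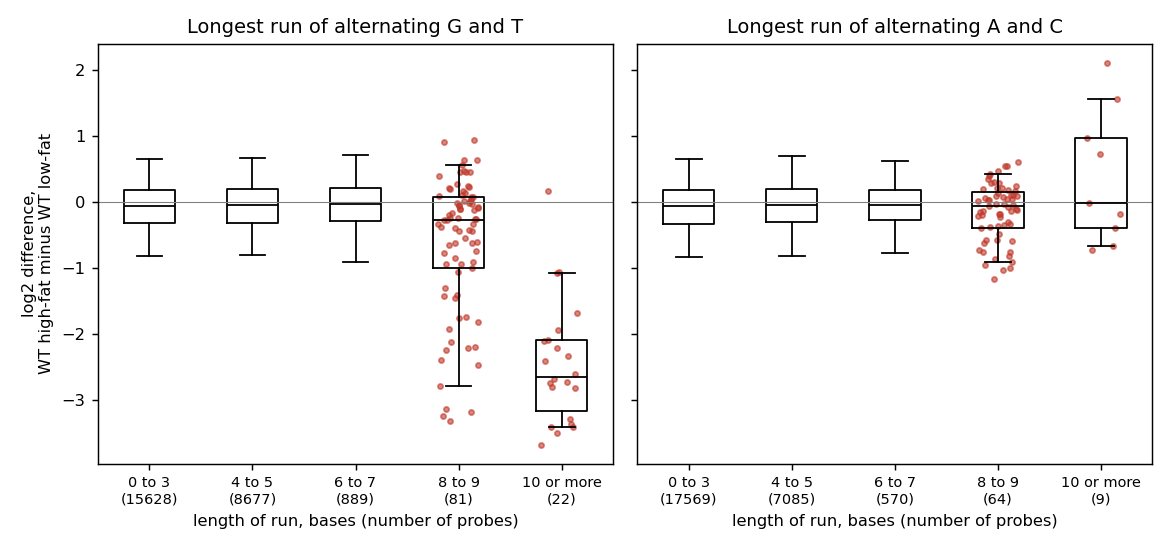
Log2 difference, WT high-fat minus WT low-fat (vertical axis), of probes grouped by their longest run of alternating G and T (left) or A and C (right), with the number of probes under each box. Boxes span the quartiles, whiskers the 5th to 95th percentiles, and points show single probes in groups under 100. The 22 probes with 10 or more G and T bases have a median of -2.65, against -0.02 for the 9 probes with 10 or more A and C bases.

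Among genes that passed, the largest fitted increase was that of a basement membrane gene. Tinag, first known from kidney tubules (probe at chr9:76989211-76989270), had levels of -2.18, -2.75 and -1.79 in WT high-fat livers, against -6.29, -7.69 and -7.18 in WT low-fat livers. It was well above background on every high-fat array and on 1 low-fat array, so its size rests partly on signals near background, and the difference was 4.81 ± 0.67 (adjusted p = 0.0104). Esm1, which encodes a proteoglycan secreted by endothelial cells, had 1.44, 2.77 and 1.48 on the high-fat and -1.68, -2.16 and -1.14 on the low-fat arrays. It was bright on all 6 arrays, and its difference was 3.56 ± 0.44 (adjusted p = 0.00749). Ttc39a differed by 3.52 ± 0.57, the phosphatase relative Mtmr11 by 3.26 ± 0.66 and Ccdc120, well above background on 1 of 3 low-fat arrays, by 3.04 ± 0.39. The oxysterol-binding protein gene Osbpl3 had 1.43, 1.56 and 1.57 under high fat and -0.23, -3.46 and -1.04 under low fat (adjusted p = 0.0354). In 13 of the 15 largest increases WT low-fat replicate 2 was the array farthest from the high-fat group, as it was in 10 of the 15 largest decreases.

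Of the largest decreases, Adgrf1, an adhesion receptor of the G protein-coupled class, had the tightest groups. Its levels were -4.32, -4.15 and -4.22 in WT high-fat livers, against -1.07, -0.93 and -1.17 in WT low-fat livers, a difference of -3.18 ± 0.37 (adjusted p = 0.00749). Myh2, a myosin heavy chain gene of fast muscle fibres, had -3.63, -4.10 and -4.80 on the high-fat and -1.78, -1.28 and -2.28 on the low-fat arrays, a difference of -2.40 ± 0.31. Neither gene's groups overlapped. Tspyl4 differed by -2.06 ± 0.30 and the glutamate receptor gene Grm8 by -2.10 ± 0.45. The glutamate receptor gene Grid1 fell by 2.33 on the log2 scale and was well above background on 2 of 3 high-fat arrays. Srrm3, which encodes a splicing regulator of neurons, cleared background on every low-fat and no high-fat array, so only a bound can be given, at least 5.62-fold lower on the high-fat diet. For the bound, the dim side of each array was its lowest signal above background or the probe's own signal, whichever was higher. The bounds of 4 other such genes were lower, at 1.98-fold for Golga7b, 2.79-fold for Tmeff2, 1.70-fold for Brsk2 and 1.75-fold for Abcg4. The others of the 15 largest decreases, Moxd1, Hamp, Hsd3b4, Hsd3b5 and Srgap3, are described with their groups.

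**Figure D3:**
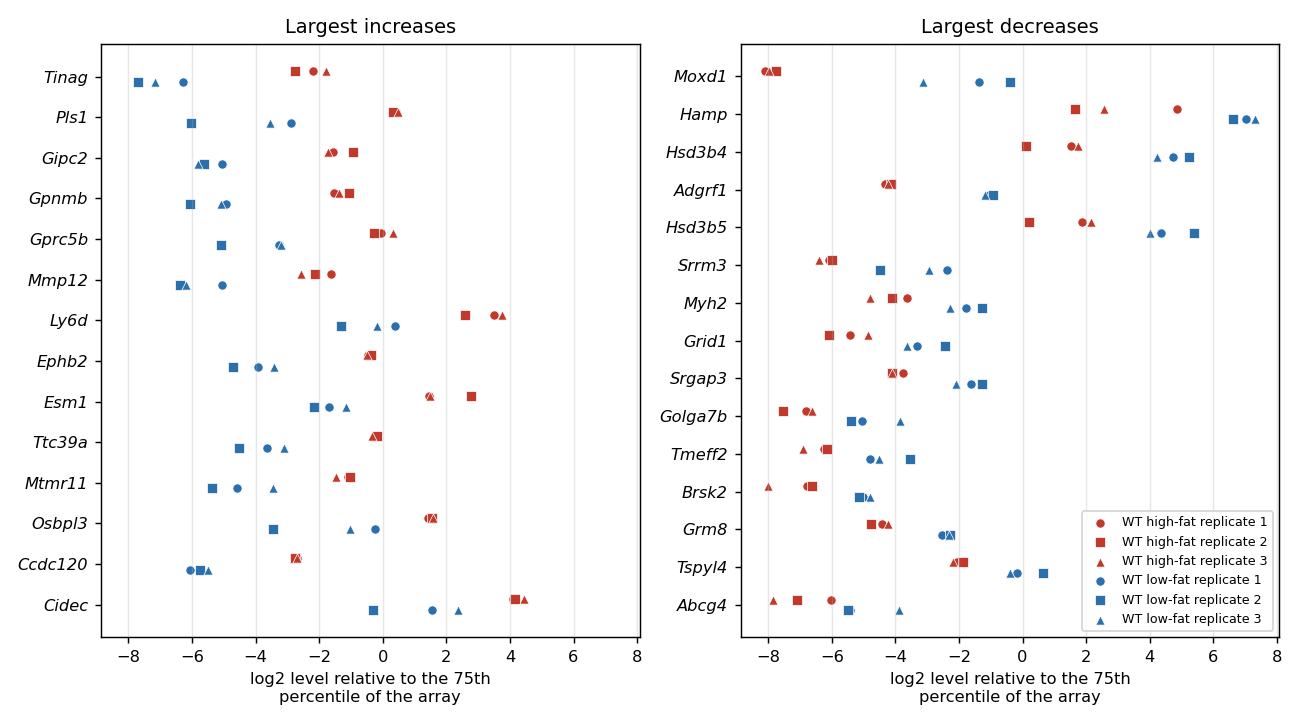
Log2 levels (horizontal axis, relative to the 75th percentile of the array) of 14 of the 15 largest increases (left) and the 15 largest decreases (right) among named genes, 1 point per WT array. High-fat arrays in red lie just above the low-fat arrays in blue in each row, and the diets do not overlap in any of the 29 genes.

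Some genes of fat storage and uptake rose on the high-fat diet. Of 15 measured genes for proteins that coat lipid droplets 4 rose and 0 fell, with a median difference of 0.52, against -0.05 for all genes tested. Cidec, which fuses droplets into larger ones, had levels of 4.11, 4.15 and 4.45 in WT high-fat livers, against 1.54, -0.31 and 2.37 in WT low-fat livers. The low-fat arrays spread over more than 2 log2 units, with replicate 2 lowest, and the difference was 3.04 ± 0.74 (adjusted p = 0.0409). Hilpda, an inhibitor of fat breakdown in droplets, rose by 0.88 ± 0.20 and the perilipin gene Plin3 by 0.56 ± 0.14. Hsd17b13, a droplet-bound dehydrogenase, rose by 0.72 ± 0.15 on its brighter probe, while its other probe differed by -0.57. The largest difference of the group did not pass. Cidea, a relative of Cidec, had 5.85, 5.67 and 6.41 on the high-fat and 2.91, -2.96 and 2.48 on the low-fat arrays, a difference of 5.16 ± 1.62 (adjusted p = 0.0812). Its low-fat levels were spread by replicate 2, as were those of Plin4 (3.71, 3.70 and 3.58 against 2.73, -0.56 and 1.45, adjusted p = 0.0571). With 1 array left out at a time the number of droplet genes called ran from 0 to 5.

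Of 16 genes of fatty acid uptake and PPARG targets 5 rose and 0 fell, with a median of 0.36. The nuclear receptor gene Pparg, which drives fat storage, had 2.67, 2.60 and 2.67 on the high-fat and 1.66, 1.10 and 1.58 on the low-fat arrays, a difference of 1.20 ± 0.20 (adjusted p = 0.0151). Fabp4, a fatty acid carrier, had 3.70, 4.46 and 3.75 against 2.46, 2.41 and 1.74, a difference of 1.76 ± 0.28. For both genes every high-fat array lay above every low-fat array, and both passed whichever array was left out. The fatty acid transporter gene Cd36 rose by 1.54 ± 0.36 and the transport protein gene Slc27a4 by 0.55 ± 0.13. The glycerol channel gene Aqp7 cleared background on 2 of 3 high-fat arrays and on none under low fat, which made it at least 2.28-fold higher. Of 13 lipases and their cofactors, Lpl, which frees fatty acids from lipoproteins, rose by 1.15 ± 0.21 and the lipase activator gene Abhd5 by 0.53 ± 0.11. Of 19 enzymes of glycerolipid synthesis 2 rose, Gpam, which catalyses the first step (1.51 ± 0.33), and the next acyltransferase gene Agpat2 (0.57 ± 0.14).

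Of 13 genes of fatty acid synthesis 0 passed in limma, 3 had an unadjusted p under 0.05, and the median was 0.45. The citrate lyase gene Acly, at 0.82 ± 0.29, had the lowest p (adjusted p = 0.112). The fatty acid synthase gene Fasn had 7.70, 7.74 and 8.33 on the high-fat and 7.31, 7.48 and 7.62 on the low-fat arrays, groups that did not overlap, with adjusted p = 0.368. Of 13 enzymes that lengthen or desaturate fatty acids only Elovl7 passed, with a difference of 2.37 ± 0.54. It was well above background on 2 of 3 low-fat arrays. The desaturase gene Fads1 had the next lowest p (0.61 ± 0.17, adjusted p = 0.0549). With an unadjusted p under 0.05, 6 of the 13 were higher and 1 lower, against 10.5% and 15.3% of all genes tested. Without overlap, 5 were higher and 0 lower, against 12.5% and 18.0%. Of 28 genes of fatty acid oxidation 0 passed in limma, 5 had an unadjusted p under 0.05, against 25.8% of all genes tested, and the median was 0.04. Carnitine palmitoyltransferase gene Cpt1a, the entry step into mitochondria, differed by -0.24. Pdk4, which holds back glucose oxidation, had levels of 1.85, 0.67 and 3.13 on the high-fat and -0.74, 0.13 and 0.78 on the low-fat arrays (adjusted p = 0.116). Of 29 genes of oxidative phosphorylation 0 passed in limma, 1 had an unadjusted p under 0.05, and the median was 0.08. The 5 genes of ketone body metabolism had 0 on both counts in limma. Among 15 apolipoprotein and lipoprotein genes, Apoa4, an apolipoprotein that liver and gut secrete with lipid, was higher at 6.08, 5.43 and 6.28 against 3.42, 3.34 and 4.42 on the low-fat arrays (2.20 ± 0.41, adjusted p = 0.0196). Apom was lower, by -0.50 ± 0.13.

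Some genes of cholesterol synthesis rose. Of 21 genes of cholesterol synthesis 4 rose and 0 fell, and the median was 0.55. In 13 of the 21 the groups did not overlap with the high-fat arrays above, against 12.5% of all genes tested. Lss, the lanosterol synthase gene, had 2.23, 2.16 and 2.20 on the high-fat and 1.07, 1.70 and 0.93 on the low-fat arrays, a difference of 0.96 ± 0.22. The decarboxylase gene Mvd rose by 1.35 ± 0.34, with high-fat replicate 2 the nearest to the low-fat group, and the squalene synthase gene Fdft1 by 0.72 ± 0.16. Srebf2, the factor that drives the pathway, differed by 0.26 ± 0.15 (adjusted p = 0.309). Of 15 genes of cholesterol transport 2 rose and 1 fell, with a median of -0.22. Scarb1, the receptor for high-density lipoprotein, fell, with a difference of -0.54 ± 0.12. Each of the 7 calls of the pair of lists was lost on leaving out at least 1 array.

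Of 18 genes of bile acid synthesis 0 rose and 2 fell, with a median of -0.31 and 2 positive differences. Cyp7b1, an enzyme of the alternative bile acid pathway that also inactivates steroids, had 4.86, 4.54 and 4.64 on the high-fat and 5.97, 6.36 and 5.55 on the low-fat arrays, a difference of -1.28 ± 0.29. Nr5a2, a nuclear receptor that drives bile acid genes, fell by 0.66 on the log2 scale. Of 33 cytochrome P450 genes of families 1 to 3 there were 3 higher and 3 lower, with a median of 0.01. The 3 that rose were Cyp3a11, a major drug-oxidising enzyme (1.29 ± 0.24), Cyp3a44 (1.06 ± 0.26) and Cyp3a16 (1.02 ± 0.25), close relatives whose signals are uncertain one by one. The 3 that fell were Cyp2c70, which makes muricholic acid (-0.99 ± 0.21), Cyp2c39 (-1.22 ± 0.26) and Cyp2c54 (-1.25 ± 0.29). Of 11 genes of the CYP4 family, Cyp4f14 and Cyp4v3 fell, by 0.99 and 0.85 on the log2 scale. Of 38 conjugating enzymes, Ugt1a9 (1.35 ± 0.27) and the oestrogen sulfotransferase gene Sult1e1 (1.57 ± 0.40) were higher, and Ugt2b1, a glucuronosyltransferase, was lower, at 3.14, 2.78 and 3.15 against 4.05, 4.16 and 4.13 (-1.09 ± 0.18, adjusted p = 0.0136). Slco2a1, the prostaglandin transporter gene, was the 1 of 24 transporters that passed, with a difference of -1.07 ± 0.17.

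Some of the genes that are higher in male than in female mouse liver fell on the high-fat diet. Of 21 measured, 9 fell, 0 rose and 0 had a positive difference, with a median of -0.86. Moxd1, a copper monooxygenase relative (probe at chr10:24053329-24053387), had levels of -8.10, -7.75 and -7.99 on the high-fat and -1.38, -0.39 and -3.14 on the low-fat arrays. It cleared background on no high-fat and every low-fat array, and the bound is at least 17.4-fold lower (adjusted p = 0.00749). Hsd3b5, a male-specific steroid reductase, had 1.87, 0.19 and 2.16 against 4.35, 5.39 and 3.99, a difference of -3.17 ± 0.82. Its relative Hsd3b4, whose probe may share transcripts with it, differed by -3.60 ± 0.66. Srgap3, which encodes a regulator of small GTPases, differed by -2.31 ± 0.29, Cspg5 by -1.62 ± 0.33, the complement gene Susd4 by -1.38 ± 0.33 and C8b, a subunit of the membrane attack complex, by -1.19 ± 0.23. Other male-biased genes stood near 0, among them the urinary protein gene Mup1 (-0.06) and Cyp2d9 (-0.01). Of 21 female-biased genes 2 rose, Cyp3a44 and Cyp3a16, and 0 fell, with a median of 0.09.

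Of 18 genes of growth hormone signalling 1 rose and 3 fell. Cish, a feedback inhibitor induced by STAT5, had 1.54, 1.04 and 1.04 on the high-fat and 2.13, 2.29 and 2.42 on the low-fat arrays, a difference of -1.08 ± 0.24. The cytokine receptor gene Lifr and the growth factor receptor gene Egfr fell as well (Egfr by 1.32 on the log2 scale), Lifr at 3.12, 2.68 and 2.96 against 4.54, 5.06 and 4.29 (-1.71 ± 0.27, adjusted p = 0.0124). Stat5a rose by 0.94 ± 0.19, while Stat5b differed by 0.04, the growth hormone receptor gene Ghr by -0.21 and Igf1 by -0.29, none past the threshold. Of 17 genes of steroid metabolism, Srd5a1, which reduces testosterone, fell (-0.74 ± 0.15) beside Hsd3b4 and Hsd3b5. Of the 9 male-biased genes called, Moxd1 and Srgap3 passed whichever array was left out, and the number called then ran from 2 to 11.

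Single genes of sugar and nitrogen metabolism changed. Of 19 genes of glycolysis 3 rose and 0 fell, with a median of 0.39. Hk2 (1.24 ± 0.30) and Pkm (0.67 ± 0.16), forms typical of other tissues, were among them. Of 21 genes of glucose output, the glycogen branching enzyme gene Gbe1 rose (0.50 ± 0.13), a call that was lost whichever array was left out. Pck1, which commits carbon to gluconeogenesis, had 7.55, 7.44 and 6.91 against 7.89, 8.07 and 7.99, groups that did not overlap, and did not pass (-0.69 ± 0.20, adjusted p = 0.0692). The insulin receptor gene Insr was the 1 of 19 insulin signalling genes that passed, at -0.56 ± 0.14 on its brighter probe, while its other probe differed by 0.07. Of 31 genes of the urea cycle and amino acid breakdown 1 fell, with a median of -0.27 and 4 positive differences. It was Cps1, the entry enzyme of the urea cycle, at 6.15, 5.93 and 5.85 against 6.97, 7.17 and 7.14 (-1.12 ± 0.16, adjusted p = 0.0106), and it passed whichever array was left out.

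Some acute phase genes, whose proteins the liver secretes in inflammation, rose. Of 26 measured 8 rose and 0 fell, with a median of 0.23. The serum amyloid gene Saa1 had 6.56, 7.22 and 5.93 on the high-fat and 4.98, 4.13 and 4.43 on the low-fat arrays (2.05 ± 0.35, adjusted p = 0.0177). Its near-identical neighbour Saa2 rose by 2.01 ± 0.35 and Saa3, also made by macrophages, by 1.99 ± 0.46. For Saa1, Saa2, Saa3 and Lcn2 the highest array was high-fat replicate 2. Lcn2, which withholds iron carriers from bacteria, had 0.55, 1.52 and 0.17 against -1.49, -3.11 and -1.14 (2.66 ± 0.58). Smaller increases were those of Orm3 (1.17 ± 0.26), the pentraxin gene Apcs (0.88 ± 0.21), the haem carrier gene Hpx (0.67 ± 0.13) and Orm2 (0.58 ± 0.13). The fibrinogen genes Fga, Fgb and Fgg differed by -0.44, 0.22 and 0.02 and did not pass. Left-out arrays took the number called to between 1 and 8, and Saa1 passed in every case. Of 45 complement and coagulation genes, Tfpi2 rose (0.44 ± 0.11), and C8b and C1ra fell (-0.62 ± 0.13 for C1ra on its brighter probe, and 0.10 on its other).

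The iron hormone gene Hamp, which encodes hepcidin (probe at chr7:27882251-27882310), was lower. Its levels were 4.86, 1.66 and 2.56 in WT high-fat livers, against 7.03, 6.63 and 7.31 in WT low-fat livers, a difference of -3.97 ± 0.64 (adjusted p = 0.0136). The high-fat arrays spread over more than 3 log2 units without reaching the low-fat group. Targets of bone morphogenetic protein signalling, which controls Hamp, were lower in 2 cases. Smad7, a feedback inhibitor, had -0.08, -0.03 and -0.25 against 1.86, 0.84 and 1.31 (-1.46 ± 0.25), and Id1 differed by -1.18 ± 0.30. The ligand gene Bmp6 (-0.58, adjusted p = 0.11) and the transferrin receptor gene Tfrc (1.72, adjusted p = 0.0947) did not pass. In all, 4 of 23 iron genes fell, with Ireb2 (-0.61 ± 0.15) as the fourth, and 2 rose, Hpx and Lcn2.

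**Figure D4:**
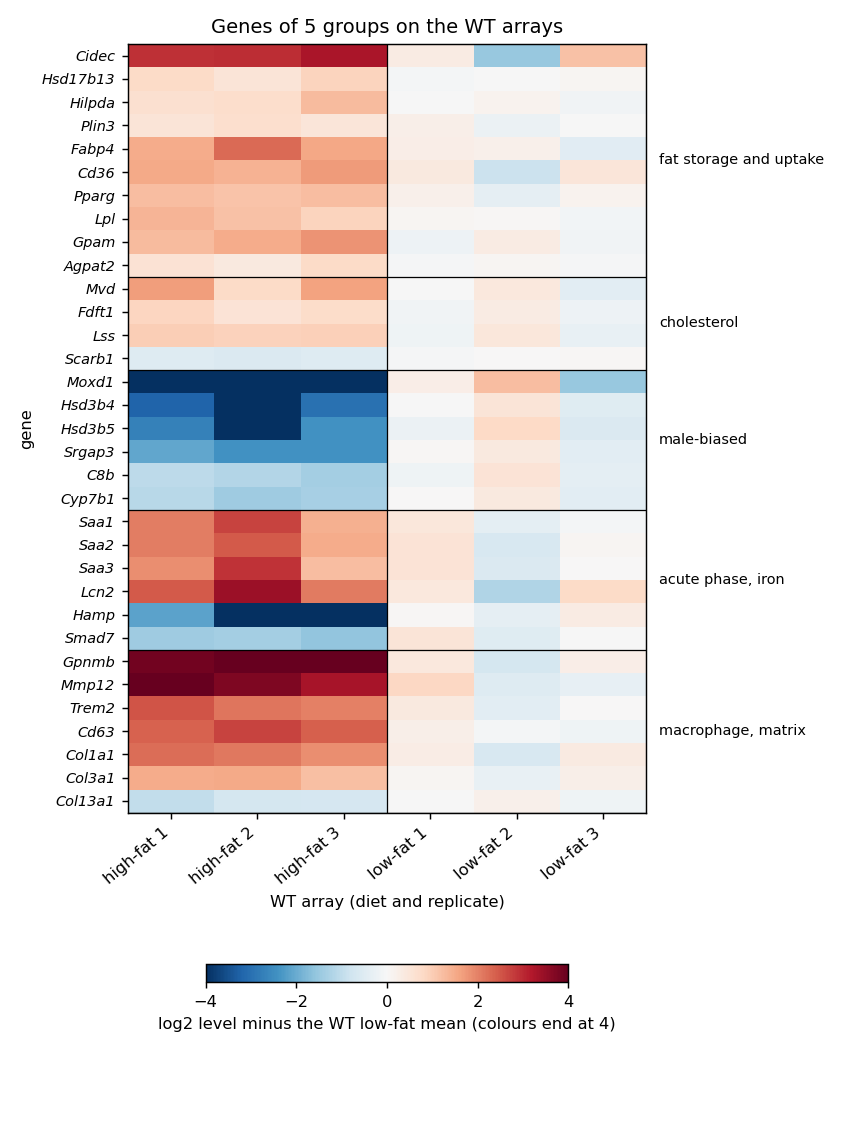
Colours show the log2 level minus the WT low-fat mean for genes (rows) of 5 groups on the 3 WT high-fat and 3 WT low-fat arrays (columns), and end at 4 on each side. The high-fat columns are red for Cidec (3.04), Gpnmb (4.04) and Mvd (1.35) and blue for the male-biased genes, Scarb1, Hamp, Smad7 and Col13a1, and low-fat replicate 2 is the bluest low-fat column for Cidec, Cd36 and Lcn2.

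Of 23 markers of macrophages that gather around lipid 6 rose and 0 fell, with a median of 0.46. Gpnmb, a membrane glycoprotein of such cells, had -1.52, -1.07 and -1.37 on the high-fat and -4.94, -6.07 and -5.09 on the low-fat arrays (4.04 ± 0.60, adjusted p = 0.0106). The elastase gene Mmp12 had -1.63, -2.14 and -2.57 against -5.05, -6.38 and -6.20 (3.76 ± 0.48). Both were well above background on 1 of 3 low-fat arrays, so their folds rest partly on signals near background. The lipid-sensing receptor gene Trem2 was bright on all arrays, at 1.39, 1.02 and 0.89 against -0.74, -1.54 and -1.11 (2.23 ± 0.41). The tetraspanin gene Cd63 (2.48 ± 0.42), the cathepsin gene Ctsz (0.73 ± 0.16) and Lpl were the other members that rose. Gpnmb, Mmp12 and Cd63 passed whichever array was left out. Of 15 markers of resident Kupffer cells 0 passed in limma, 1 had an unadjusted p under 0.05, and the median was 0.09. Cd207 had the lowest p, at 1.24, -0.41 and -0.30 on the high-fat and -1.51, -1.16 and -1.61 on the low-fat arrays. Its groups did not overlap, and it did not pass (1.61 ± 0.42, adjusted p = 0.0501). The resident markers Clec4f (0.03 ± 0.26) and Vsig4 (0.09 ± 0.27) stood near 0. Timd4 lay lower without passing, at -2.46, -1.53 and -1.52 against -0.81, -0.50 and -0.62 (adjusted p = 0.253). So did Cd163, at 1.11, 1.18 and 1.72 against 2.69, 2.34 and 1.98 (adjusted p = 0.456). Without overlap, 2 of the 15 were higher and 2 lower, against 12.5% and 18.0% of all genes tested. Of 17 monocyte and neutrophil genes Chil3 rose (2.52 ± 0.53).

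Of 29 chemokine and receptor genes 3 rose and 1 fell. Ccl2, which draws monocytes, differed by 1.68 ± 0.32 (adjusted p = 0.0216), with no overlap between the groups. Cx3cl1 (1.23 ± 0.30) and the scavenging receptor gene Ackr3 (1.14 ± 0.29) rose, and Cxcr6, a receptor of lymphocytes, fell (-1.36 ± 0.31). Of 30 NF-kB and cytokine genes 4 rose and 0 fell. They were the subunit genes Nfkb2 (0.90 ± 0.13) and Relb (1.17 ± 0.20), Tlr2, a receptor for bacterial lipids (1.11 ± 0.23), and the adhesion gene Icam1 (0.87 ± 0.19). Of 29 interferon-induced genes, 23 genes of antigen presentation, 21 of T and NK cells and 11 of B and plasma cells, 0 passed in limma in any list. An unadjusted p under 0.05 was found for 7, 0, 5 and 2 of them, against 25.8% of all genes tested. The medians were 0.05 for interferon-induced genes, 0.25 for antigen presentation, -0.36 for T and NK cells and -0.36 for B and plasma cells. The T cell receptor subunit gene Cd3e had -2.04, -2.52 and -3.22 on the high-fat and -1.71, -1.51 and -1.88 on the low-fat arrays (adjusted p = 0.0967).

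Some genes of the scar matrix rose. Of 20 collagen genes 5 rose and 1 fell, with a median of 0.65. Col1a1, a chain of the main fibrillar collagen, had 1.86, 1.75 and 1.48 on the high-fat and -0.08, -1.01 and -0.02 on the low-fat arrays (2.07 ± 0.48, adjusted p = 0.0362). Col3a1 rose by 1.40 ± 0.36, Col12a1 by 1.39 ± 0.26, Col8a1 by 1.28 ± 0.33 and Col5a2 by 1.14 ± 0.23. The transmembrane collagen gene Col13a1 fell, at -0.08, 0.21 and 0.24 against 0.89, 1.13 and 0.74 (-0.80 ± 0.15). Of 31 genes of stellate cell activation 3 rose and 1 fell, Smad7, with a median of 0.55. Among those that rose were the growth factor receptor gene Pdgfrb (0.88 ± 0.17) and the matrix protein gene Sparc (0.67 ± 0.17). In 18 of the 31 the groups did not overlap with the high-fat arrays above, against 12.5% of all genes tested. Of 23 genes of matrix turnover 5 rose and 0 fell, with a median of 0.75. Beside Mmp12 these were the collagenase gene Mmp13, at -1.81, -2.53 and -3.09 against -5.02, -6.23 and -5.12 (2.98 ± 0.55), the urokinase receptor gene Plaur (1.32 ± 0.21), Mmp23 (1.31 ± 0.28) and the collagen chaperone gene Serpinh1 (0.87 ± 0.22). Mmp13 was well above background on 1 of 3 low-fat arrays. The inhibitor gene Timp1 differed by -0.11. With 1 array left out at a time the number of collagen genes called ran from 0 to 7, and Mmp12 and Plaur passed in every case.

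Of 21 annexin and S100 genes 4 rose and 0 fell, with a median of 0.58. Anxa2, which links membranes to actin, had 3.06, 3.22 and 3.32 on the high-fat and 0.79, 1.01 and 0.94 on the low-fat arrays. The gap between the groups was several times the spread within either, and the difference was 2.29 ± 0.27 (adjusted p = 0.00749). Anxa8 rose by 2.24 ± 0.42, Anxa5 by 1.33 ± 0.25 and Anxa7 by 0.55 ± 0.13, whose other probe differed by -0.23. A list of epithelial scaffold genes, part of whose members were picked from earlier results of these data, held 8 of 30 that rose and 1 that fell. Ly6d, a surface antigen, had 3.48, 2.58 and 3.74 on the high-fat and 0.37, -1.32 and -0.17 on the low-fat arrays (3.64 ± 0.61). The actin-bundling gene Pls1 (4.56 ± 0.85), the PDZ protein genes Gipc2 (4.09 ± 0.71) and Sdcbp2 (2.92 ± 0.70), the receptor genes Gprc5b (3.83 ± 0.70) and Ephb2 (3.58 ± 0.73), Tinag and the hepatocyte keratin gene Krt8 (0.77 ± 0.17) made up the rest. Gipc2 and Tinag were well above background on 1 of 3 low-fat arrays and Pls1 on 2. Ceacam1 fell (-0.78 ± 0.19).

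Stress and proliferation genes rose in part. Of 31 NRF2 targets 6 rose and 0 fell, with a median of 0.26. Srxn1, which repairs peroxiredoxins, had 4.22, 4.04 and 4.02 on the high-fat and 2.96, 2.85 and 3.09 on the low-fat arrays (1.13 ± 0.14, adjusted p = 0.00749), and the carbonyl reductase gene Cbr3 rose by 2.02 ± 0.29. Both passed whichever array was left out. Nqo1 (1.03 ± 0.27), Gpx4 (0.64 ± 0.16) and the pentose phosphate genes Pgd (0.96 ± 0.21) and Tkt (0.66 ± 0.15) followed. Of 24 p53 targets 3 rose, Phlda3 (1.37 ± 0.18), the cell cycle inhibitor gene Cdkn1a (1.90 ± 0.44) and Bax (0.65 ± 0.11). Of 34 cell cycle genes 2 rose, the replication helicase gene Mcm6 (0.85 ± 0.19) and Aurka, a kinase of mitosis (1.09 ± 0.25), with a median of 0.52. Of 30 genes of stress in the endoplasmic reticulum Atf3 rose, at -0.75, -1.09 and -0.84 against -2.81, -2.56 and -2.51 (1.73 ± 0.31), and the median was -0.02. Of 20 heat shock genes and 21 clock genes 0 passed in limma, and 1 in each list had an unadjusted p under 0.05. Among 22 immediate early genes Egr2 (1.98 ± 0.40) and Klf6 (1.09 ± 0.24) rose beside Atf3, and Junb is the 1 called lower, on the probe with a run.

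**Figure D5:**
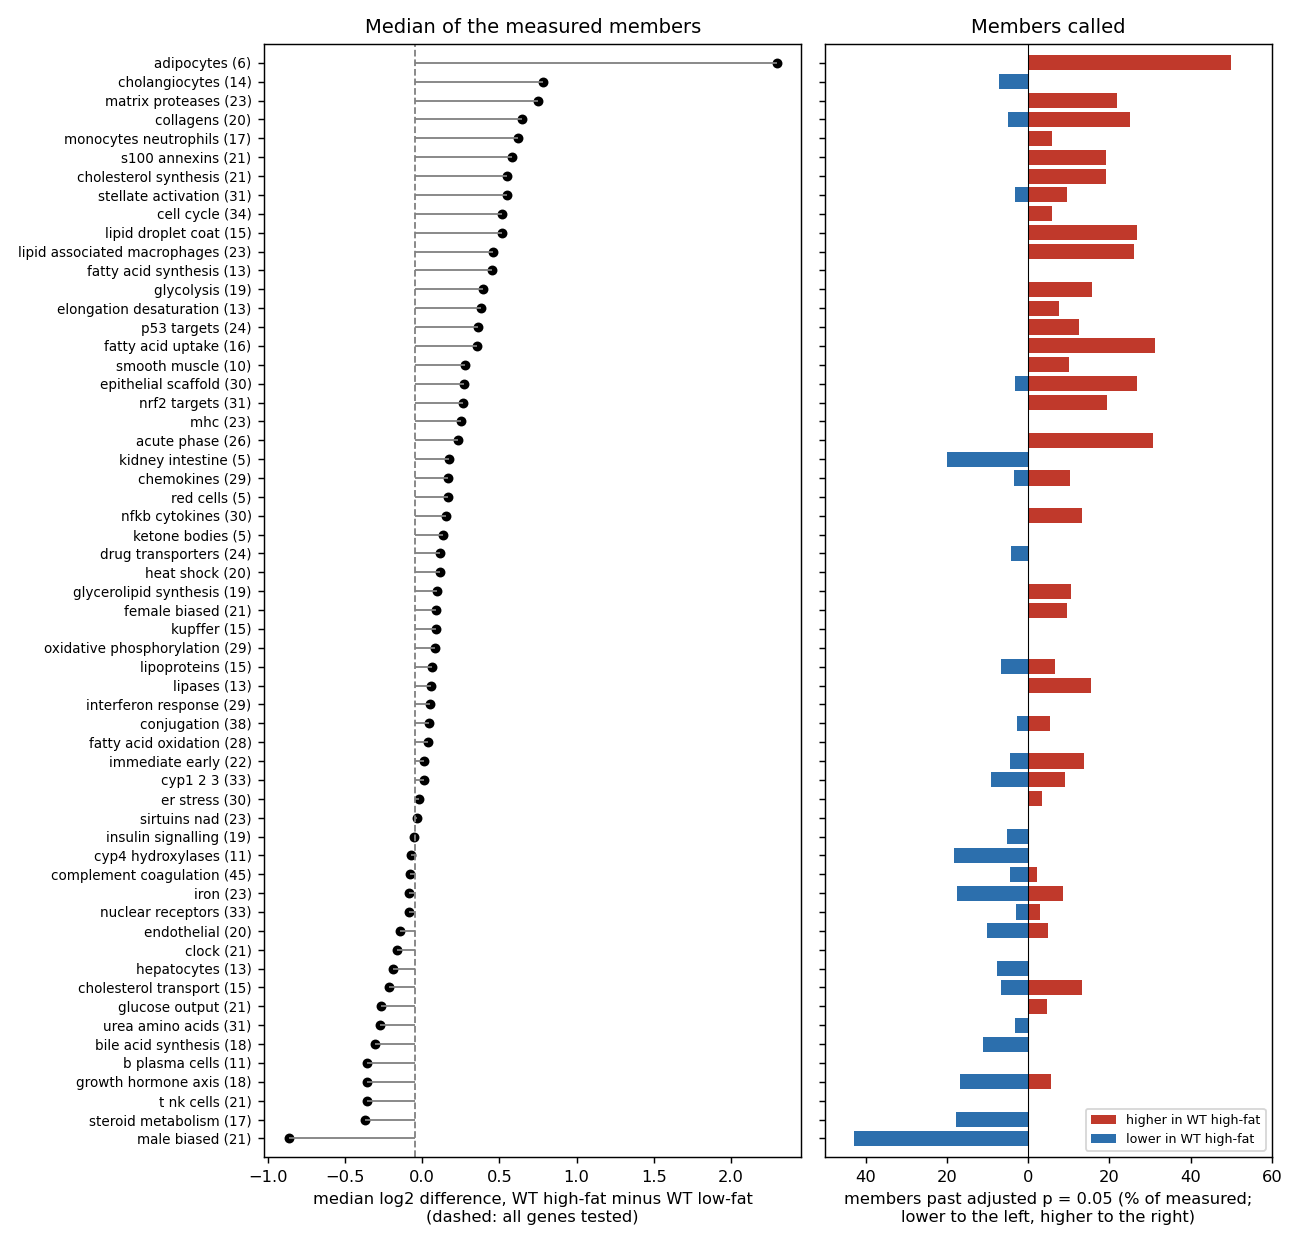
For each gene list with at least 5 measured genes (number in brackets), the left panel shows the median log2 difference, WT high-fat minus WT low-fat, with a dashed line at the -0.05 of all genes tested, and the right panel the share of members called higher (red) and lower (blue). Adipocyte markers have the highest median, 2.30, and male-biased genes the lowest, -0.86.

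Markers of other cell types moved with part of these groups. Of 14 adipocyte markers 6 were measured, and 3 of them rose, Fabp4, Cidec and Aqp7, with a median of 2.30. Log2 of the summed signal of the 6 was between 6.80 and 7.13 under high fat and between 4.89 and 5.53 under low fat. Fat-storing hepatocytes are known to express Cidec and Fabp4 too. Among other adipocyte markers, Lep was well above background on 0 of the 6 WT arrays. Plin1 was so on 1 high-fat and no low-fat array, and Adipoq on 1 high-fat and 2 low-fat arrays. Cfd was well above background on all 6, at 1.48, 1.79 and -0.35 against 0.12, -3.02 and -0.66. Its groups overlapped, and it did not pass (2.16 ± 0.79, adjusted p = 0.12). Of 14 cholangiocyte markers the water channel gene Aqp1, which endothelium also expresses, fell, at 3.98, 4.21 and 4.30 against 5.13, 4.93 and 5.07 (-0.88 ± 0.14, adjusted p = 0.0123). The other 13 did not pass, and the median of the 14 was 0.78. For 7 of the 14 the groups did not overlap with the high-fat arrays above, against 12.5% of all genes tested. Aqp1 was the 1 without overlap in the other direction. Among the 7 were Spp1 (1.64 ± 0.46, adjusted p = 0.0607) and Tspan8 (1.82 ± 0.56, adjusted p = 0.0762). The summed signal of the 14 ran from 5.33 to 5.49 under high fat and from 5.28 to 5.51 under low fat. It rested mostly on the probes of Aqp1 and Spp1, whose differences had opposite signs. Of 20 endothelial markers Kdr (-0.60 ± 0.15) and Dnase1l3 (-0.76 ± 0.18) fell and Lyve1 rose (1.24 ± 0.32). The summed endothelial signal was between 6.26 and 6.39 under high fat and between 6.55 and 6.60 under low fat. For the list of macrophages that gather around lipid the summed signal ran from 10.03 to 10.44 under high fat and from 9.91 to 10.26 under low fat. That of the stellate list ran from 7.24 to 7.47 and from 7.10 to 7.18. Such sums rest mostly on the brightest probes of a list, and Gpnmb, Mmp12 and Trem2 lay far below the sum of theirs. Of 10 smooth muscle genes Smtn rose (0.64 ± 0.16), and 0 of 5 measured red cell and 0 of 4 pancreas genes passed in limma, with an unadjusted p under 0.05 for 1 and 3 of them. Of 5 measured kidney and gut genes Lrp2 fell (-1.32 ± 0.34). The part of cell type shares in the differences was not tested.

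Sirt1 itself, the NAD-dependent deacetylase that gives the series its subject, did not pass between the diets in WT livers. Its brighter probe had levels of -0.37, -0.26 and -0.17 in WT high-fat livers, against 0.23, -0.05 and -0.09 in WT low-fat livers, a difference of -0.29 ± 0.13 (adjusted p = 0.193). The other probe had -1.14, -0.81 and -0.92 against -0.69, -0.64 and -0.31 (-0.41 ± 0.13, adjusted p = 0.088 over all probes). On both probes each high-fat array lay below each low-fat array, as in 18.0% of all genes tested. Of 23 genes of sirtuins and NAD metabolism 0 passed in limma and 3 had an unadjusted p under 0.05. The NAD salvage enzyme gene Nampt differed by 0.39 ± 0.18, and Nnmt, which consumes nicotinamide, had 5.15, 4.91 and 4.65 against 5.74, 5.84 and 5.28 (-0.72 ± 0.22, adjusted p = 0.0812).

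The same contrast in Het livers was set beside the WT response. Of the 464 genes higher in WT, 456 were also higher on the high-fat diet in Het livers, and 364 of those passed there. Of the 539 lower in WT, 524 were also lower in Het and 352 passed. Both contrasts used the same estimate of the spread for a gene, so passing in Het was not independent of passing in WT. Over all 17043 genes, the sign was shared by 77.9%, and 2617 passed in Het with the same sign as in WT. Scan day coincided with diet in both genotypes. The test of the difference between the diet responses called 0 genes (0.0%) in limma, and 828 (4.86%) had an unadjusted p under 0.05. The response is therefore not shown to be particular to WT for any gene. Among the lowest p-values, Cish differed by -2.95 ± 0.24 between the diets in Het and by -1.08 ± 0.24 in WT. The myosin light chain gene Myl7 differed by -0.92 ± 0.28 in Het and by 1.31 ± 0.28 in WT, and the glypican gene Gpc3 by -0.52 ± 0.25 in Het and by 1.30 ± 0.25 in WT. All 3 had an adjusted p of 0.944 for the difference. Hamp differed by -1.68 in Het and -3.97 in WT, and Hsd3b5 by -6.62 in Het and -3.17 in WT, neither past the test of the difference.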

How the data were processed

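Liver RNA was labelled with Cy3 and hybridised to 1-colour Agilent arrays, per the labels. The submitters' processing notes name Feature Extraction 9.5 as the source of the deposited intensity values. The processed intensity, per the file headers, is background-subtracted and detrended within the array, with no normalization between arrays recorded. Flags that mark bright, saturated and outlying spots were deposited beside them, per the file headers. The deposited series table held the same intensity values, on a linear scale and not centred (medians on the WT arrays 86.3, 117.1 and 78.3 on high fat, 142.1, 95.2 and 129.9 on low fat), so it is no separate alternative.

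The log2 processed intensity was set relative to the 75th percentile of the non-control spots of its array. Outlier spots (1344) were left out, spots of a probe averaged and 25297 of 41174 probes kept, those that cleared background in every array of some group. Genes were named through accession or symbol in a table of RefSeq genes (GRCm38.p6), and otherwise kept the design's name. Of several probes the brightest stood for a gene. All 12 arrays were fitted in limma 3.58.1 (R 4.3.3) as means of 4 groups, by two-sided moderated tests, with Benjamini-Hochberg adjustment over 17043 genes at 0.05. Errors are SE from that fit. Residual degrees of freedom were 8 and prior ones 2.8. The steps were tested on simulated data.

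Named genes are the 15 largest increases and decreases that were called, had a current symbol, no overlap, signal well above background in the brighter group and no run of 8 or more G and T bases, called list members or, in lists with fewer than 2, the 2 of lowest p, the 6 largest decreases among probes with runs, and every Sirt1 probe. Some other list members are named for their role. The arrays compared, the gene lists and this rule were chosen with earlier results of these data known. Lists are described by counts and medians, with no test of the list. Normalization, background correction, the filter, the probes used, the arrays fitted, slide, replicate number and array weights were varied. The design text of the series calls the mice biological replicates. The values of some genes that the rule names are not reported here.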

Additional observations from a re-analysis of the deposited data

How the results depend on the processing

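The 1003 genes called, 464 higher and 539 lower, depended on the processing. They were 156 (72 and 84) with no filter on dim probes, 598 (317 and 281) with only the WT arrays, and 1671 (687 and 984) with array weights. They were 3595 (1495 and 2100) with slide as a random block (correlation -0.18), and 1337 (998 and 339) with scaling to the median, which moved the median of all genes to 0.07 and the share of higher calls to 74.6% from 46.3%. The other scalings gave 611 higher and 415 lower (59.6% higher) after quantile normalization, 735 and 547 (57.3%) with the trend on GC content and brightness removed, and 541 and 442 (55.0%) after normexp correction. With the replicate number as a block the counts were 549, 239 and 310. The numbers did not pair the mice, since deviations of same-numbered arrays correlated at -0.008, -0.235 and 0.084. Leaving out 1 array at a time gave 186 to 1127 genes, 83 to 519 of them higher and 73 to 608 lower. The diet response that differed between the genotypes held 0 genes in every setting except 3 without WT high-fat replicate 3 and 1 without Het low-fat replicate 1. Dennd3 alone turned direction, to 0.39, when probes with runs were left out, since its other probe then stood for it. Under median scaling the medians of the lists for CYP4 enzymes, insulin signalling, iron, nuclear receptors, complement, sirtuins and endoplasmic reticulum stress changed sign, all within 0.09 of 0 in the values reported. The cause of the other changes was not tested. Differences of probes near background are limited by their signal.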
